A study of Rattus norvegicus with 7 samples.

Results

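Ventricular heart muscle cells of newborn rats expressed 10 genes chosen by symbol for what they do to actin: the 4 actin genes Actc1, Acta1, Actb and Actg1, the 3 genes of the cofilin family Cfl2, Cfl1 and Dstn, and the 3 partners Pfn1, Wdr1 and Cap2. They are 10 of the 17141 genes in the authors' table, each stands there in 1 row, and all 10 passed the filter used for every gene, a mean level of at least 1 RPKM. RPKM is a read count scaled to the length of the gene and to a library size, here not the plain total of listed reads.

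The study is about microRNAs (miRNAs) that make cardiomyocytes divide. The cells came from the ventricles of wild type Wistar rats on postnatal day 0, and all of them received a synthetic miRNA at 25 nM by lipid transfection, with RNA taken 72 h later for mRNA sequencing. The 6 human miRNAs were miR-590-3p, miR-199a-3p, miR-302d-3p and miR-373-3p, and besides these miR-1825 and miR-33b*. The seventh library received cel-miR-67, a nematode miRNA that serves as the denominator of the authors' own ratios and is used here as the control. Each miRNA has 1 library, so no difference below has a replicate check and no p-value is given. The labels call the cells ventricular cardiomyocytes from a culture from which cells that attach early to plastic were removed, and do not say how many animals were pooled. Markers of cardiomyocytes were abundant, with 11 of 12 listed markers found and a summed level of 10743 to 14589 RPKM in the miRNA libraries, against 14592 RPKM with cel-miR-67. Markers of other cells were present too. Summed RPKM was 565 to 817 against 852 for 10 fibroblast markers, 776 to 1183 against 768 for 8 smooth muscle markers, 13.0 to 16.7 against 21.2 for 4 endothelial markers, 11.6 to 15.8 against 16.9 for 5 macrophage markers and 5.10 to 12.9 against 7.62 for 3 erythroid markers. A sum follows its most abundant genes. The smooth muscle sum was above the control in all 6 libraries, while the median of these markers was below 0 in 4. Of their 48 changes 11 were at least 1.5-fold lower and 7 higher, 6 of them those of Cnn1 (named after its values were seen). Lower were also 18 of 60 fibroblast, 8 of 24 endothelial, 2 of 30 macrophage and 2 of 18 erythroid changes, and higher 0, 0, 0 and 1. Over all pairs of gene and miRNA 5.79% were lower and 5.09% higher. In bulk RNA, fewer cells of a type and less RNA per cell cannot be told apart, and whether the mix of cells had a part in the values below was not tested.

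Actin monomers join into filaments and leave them again, and the pace of this exchange is called actin turnover. Cofilins and the related destrin bind ageing filaments, sever them and speed the loss of monomers. Phosphorylation by LIM kinases switches them off and Slingshot phosphatases switch them on again. Cfl2 is the form of muscle, where it acts on the thin filaments of the sarcomere, while Cfl1 is the form of most other cells. Wdr1 (also called AIP1) helps cofilin to take filaments apart, cyclase-associated proteins such as Cap2 work with cofilin and recharge the released monomers, and profilin (Pfn1) hands monomers to growing ends. In the heart Actc1 and Acta1 encode the alpha-actins of the sarcomere and Actb and Actg1 the cytoplasmic actins. Cfl2 is a reported common target of several of the miRNAs used here.

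A miRNA finds its targets mainly through its seed, bases 2 to 8. The rat entry for miR-199a-3p is shown because no sequence of the other transfected miRNAs was at hand. Cfl2 was at 0.478 of its control level in the miR-199a-3p library, against 0.375 after miR-302d-3p and 0.446 after miR-373-3p. The rat sequence comes from RefSeq (GRCr8, chr13:77116294-77116315, plus strand), and the seed is in capitals:
rno-miR-199a-3p: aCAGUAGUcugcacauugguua
The transfected human molecules are known here by their labels, and the 3' ends of the genes, where seed matches usually lie, were not analysed here. The human miR-302d-3p and miR-373-3p share a seed.

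Cfl2, the muscle cofilin, differed most. It stood at 74.1 RPKM after miR-199a-3p, 197 RPKM after miR-590-3p, 69.2 RPKM after miR-373-3p, 58.2 RPKM after miR-302d-3p, 109 RPKM after miR-33b* and 79.3 RPKM after miR-1825, against 155 RPKM with cel-miR-67. So 5 of the 6 libraries were below the control, and miR-590-3p alone was above it. The lowest level followed miR-302d-3p and the next lowest miR-373-3p.

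As a ratio of RPKM, Cfl2 was at 0.375 of the control after miR-302d-3p (exact 95% counting interval 0.364 to 0.388) and 0.446 after miR-373-3p (0.432 to 0.461). It was at 0.478 after miR-199a-3p (0.463 to 0.494) and 0.512 after miR-1825 (0.496 to 0.528). The ratio was 0.702 after miR-33b* (0.681 to 0.723) and 1.27 after miR-590-3p (1.24 to 1.30). These intervals rest on 5860 to 14041 reads for the gene per library, cover counting error only and compare libraries, not conditions. On the scale used for all genes, the log2 ratio to cel-miR-67 after 1 was added to each RPKM, the changes were -1.40 after miR-302d-3p, -1.15 after miR-373-3p, -1.06 after miR-199a-3p, -0.96 after miR-1825, -0.51 after miR-33b* and 0.34 after miR-590-3p. The first 4 passed the limit of 1.5-fold used here (0.58 on the log2 scale) and the last 2 did not. Of all genes, 2.26% were past it downward in at least 4 of the 6 comparisons, and of all pairs of gene and miRNA 5.79% were past it downward and 5.09% upward. No other of the 10 genes passed it in more than 2 comparisons.

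**Figure D1:**
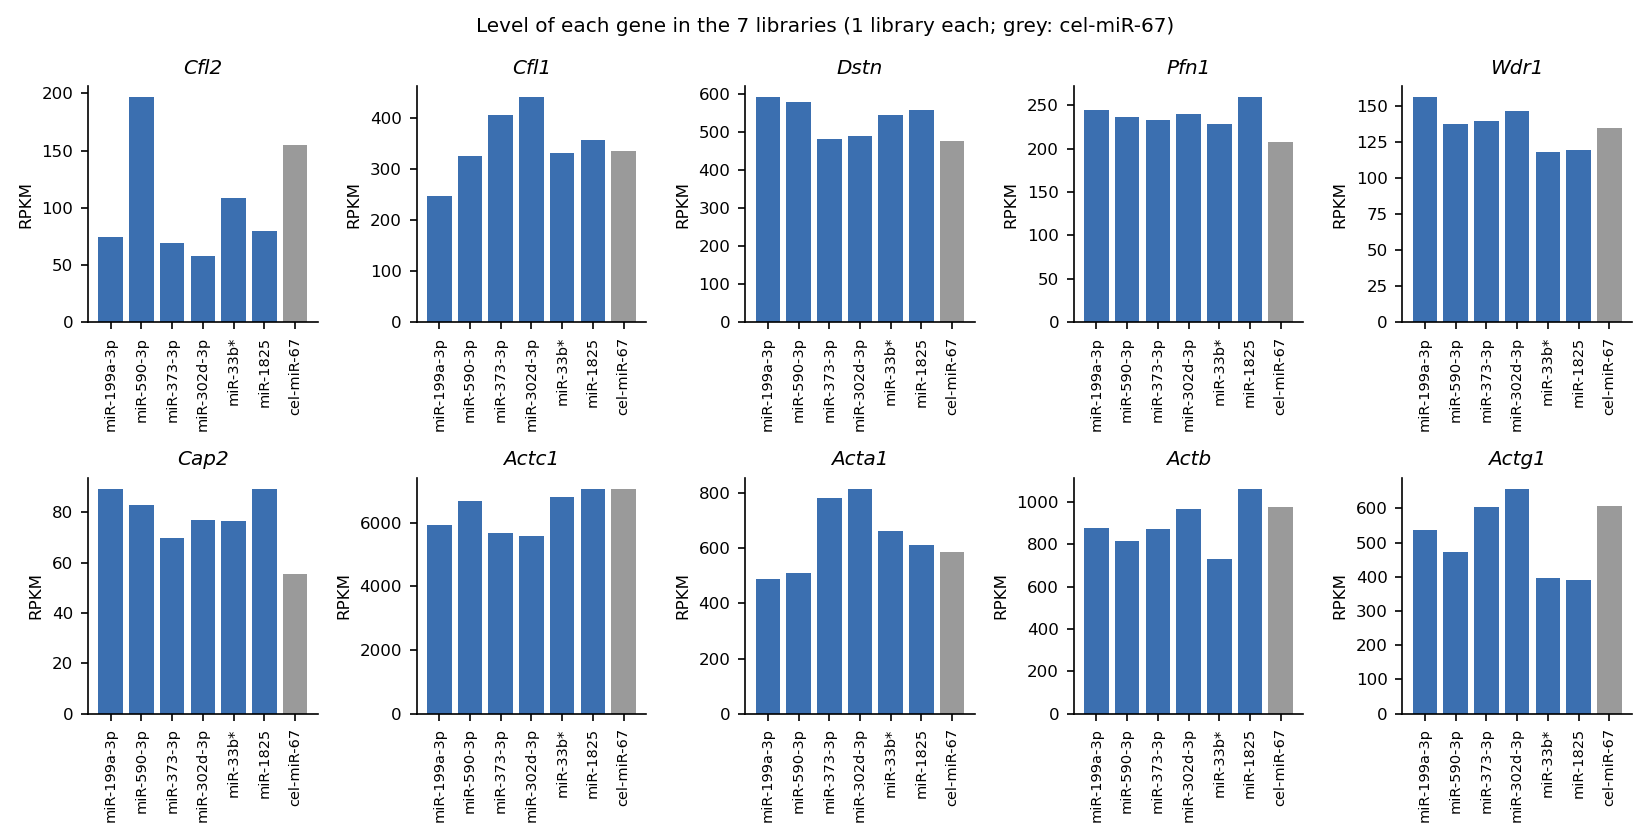
RPKM of the 10 genes (1 panel each, vertical axis from 0) in the 6 miRNA libraries (blue) and the cel-miR-67 library (grey), with 1 library per bar and no error bars because there are no replicates. Cfl2 lies between 58.2 and 197 RPKM across the blue bars against 155 RPKM in the grey one, while Cap2, Dstn and Pfn1 have every blue bar above the grey one.

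Seen against all 12330 genes that passed the filter, the Cfl2 change after miR-302d-3p had 0.835% of genes below it, that after miR-373-3p 1.18%, that after miR-199a-3p 1.35%, that after miR-1825 1.85% and that after miR-33b* 7.39%. After miR-590-3p 11.4% of genes lay above it. The 6 changes of Cfl2 spanned 1.74 log2 units, and 2.15% of all genes had a wider span. All 6 comparisons use the same cel-miR-67 library. Of the 12330 genes, 13 were past the limit downward in at least 4 comparisons and above 0 after miR-590-3p, which is 0.105%, and Cfl2 was the most abundant of them, at a mean of 106 RPKM. That rule was drawn from the pattern of Cfl2 itself, so the count is a description and no measure of how rare the gene's behaviour is.

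**Figure D2:**
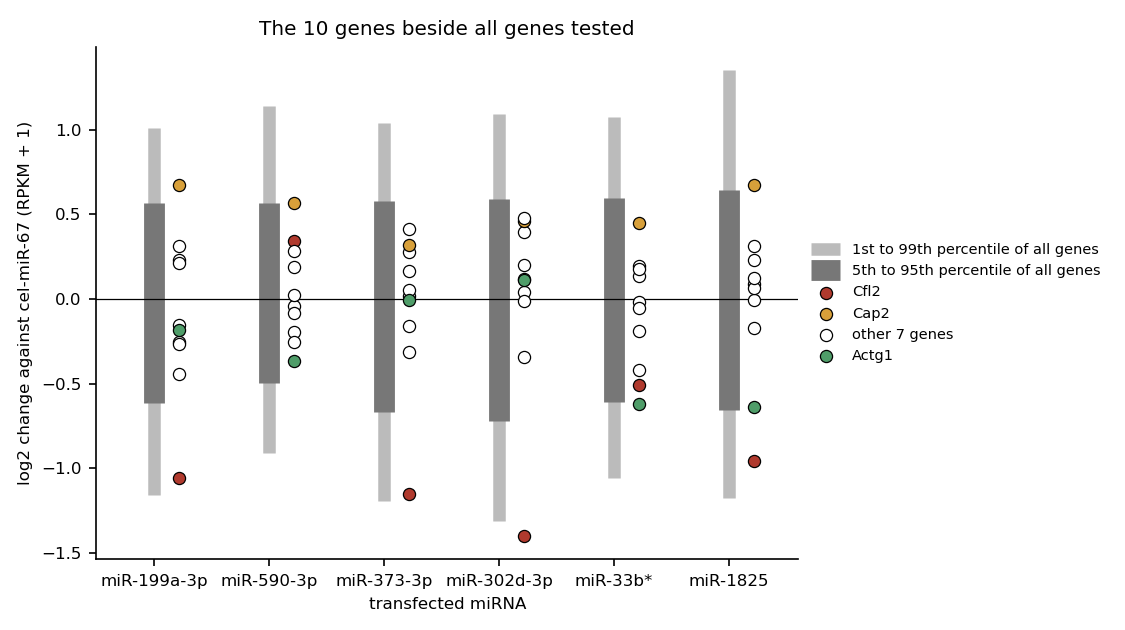
Log2 change against cel-miR-67 on the vertical axis for each of the 6 miRNAs, with grey bars for the 1st to 99th and the 5th to 95th percentiles of 12330 genes and circles for the 10 genes. The red circle of Cfl2 lies below the dark bar after miR-302d-3p (-1.40), miR-373-3p (-1.15), miR-199a-3p (-1.06) and miR-1825 (-0.96) and above 0 after miR-590-3p.

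Cfl1, the non-muscle cofilin, did not share this pattern. It stood at 247 RPKM after miR-199a-3p, 326 RPKM after miR-590-3p, 407 RPKM after miR-373-3p, 441 RPKM after miR-302d-3p, 331 RPKM after miR-33b* and 357 RPKM after miR-1825, against 335 RPKM with cel-miR-67. The 2 libraries with the lowest Cfl2 were the 2 with the highest Cfl1. Its log2 changes ran from -0.44 after miR-199a-3p to 0.39 after miR-302d-3p, and none passed 1.5-fold as deposited. After miR-302d-3p it did with total read scaling, at 0.64. The value after miR-33b*, -0.016, turned positive (0.10) when libraries were scaled to their total reads.

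Destrin (Dstn), also known as actin depolymerizing factor, was the most abundant of the family and the steadiest. It stood at 590 RPKM after miR-199a-3p, 579 RPKM after miR-590-3p, 481 RPKM after miR-373-3p, 489 RPKM after miR-302d-3p, 544 RPKM after miR-33b* and 558 RPKM after miR-1825, against 476 RPKM with cel-miR-67. All 6 miRNA libraries were thus above the control, by 0.016 to 0.31 on the log2 scale, and stayed above it with either other scaling of the libraries. Its value after miR-199a-3p passed 1.5-fold with total read scaling, at 0.67. The counting interval of the ratio after miR-373-3p, 0.992 to 1.03, included no difference.

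The distance between Cfl2 and its relatives was computed within each library, so it hardly depends on how libraries were scaled. The differences have 1 added to each RPKM, while their counting intervals are those of the plain RPKM ratios. Against Cfl1 the Cfl2 change was lower by 1.79 log2 units after miR-302d-3p (difference -1.79, counting interval -1.87 to -1.75), with -1.43 after miR-373-3p (-1.50 to -1.38), -1.05 after miR-1825 (-1.12 to -0.996), -0.62 after miR-199a-3p (-0.69 to -0.56) and -0.49 after miR-33b* (-0.56 to -0.43). After miR-590-3p it was higher than that of Cfl1, by 0.38 (0.33 to 0.44). Against Dstn the differences were -1.44 after miR-302d-3p, -1.37 after miR-199a-3p, -1.19 after miR-1825, -1.17 after miR-373-3p, -0.70 after miR-33b* and 0.058 after miR-590-3p. The order of the miRNAs therefore depended on the relative chosen, since Cfl1 was itself low after miR-199a-3p. Cfl2 was lower relative to both relatives in the same 5 libraries.

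**Figure D3:**
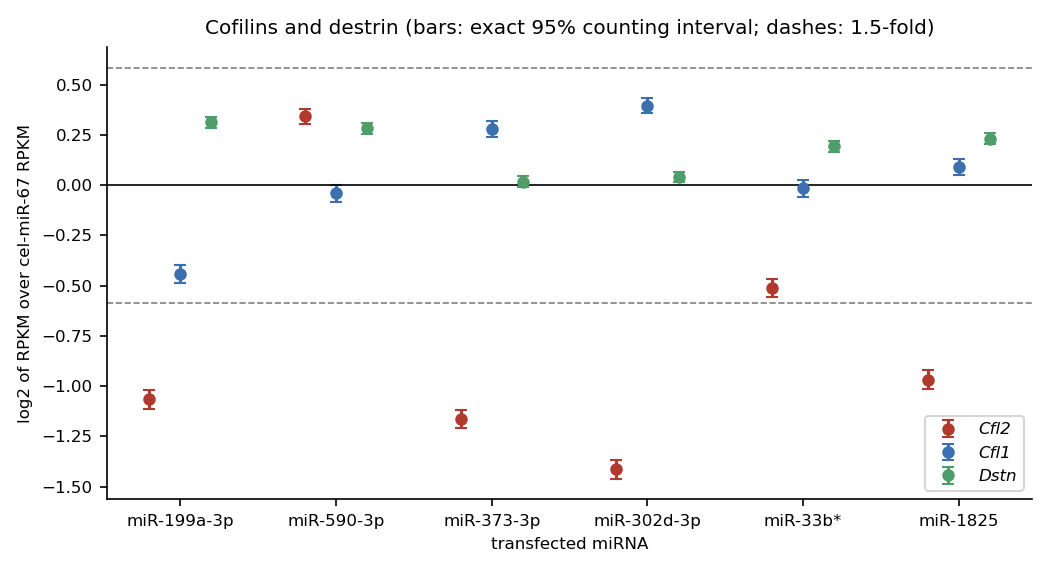
Log2 of the RPKM ratio to cel-miR-67 for Cfl2 (red), Cfl1 (blue) and Dstn (green) after each of the 6 miRNAs, with exact 95% counting intervals as bars and dashed lines at 1.5-fold. Cfl2 lies lowest of the 3 after every miRNA but miR-590-3p, where its ratio is 1.27.

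Cfl2 made up 8.13% of the summed RPKM of the 3 genes with miR-199a-3p, 17.9% with miR-590-3p, 7.23% with miR-373-3p, 5.89% with miR-302d-3p, 11.1% with miR-33b* and 7.98% with miR-1825, against 16.0% with cel-miR-67. The summed level of the family, which unlike the shares depends on how libraries were scaled, moved little as deposited. It was 911 RPKM after miR-199a-3p, 1101 RPKM after miR-590-3p and between 957 and 994 RPKM after the other 4, against 966 RPKM with cel-miR-67. Cfl1 took 44.6% of the sum after miR-302d-3p and 42.5% after miR-373-3p, against 34.7% with cel-miR-67. After miR-199a-3p Dstn took 64.8% of the sum, against 49.2% with cel-miR-67.

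**Figure D4:**
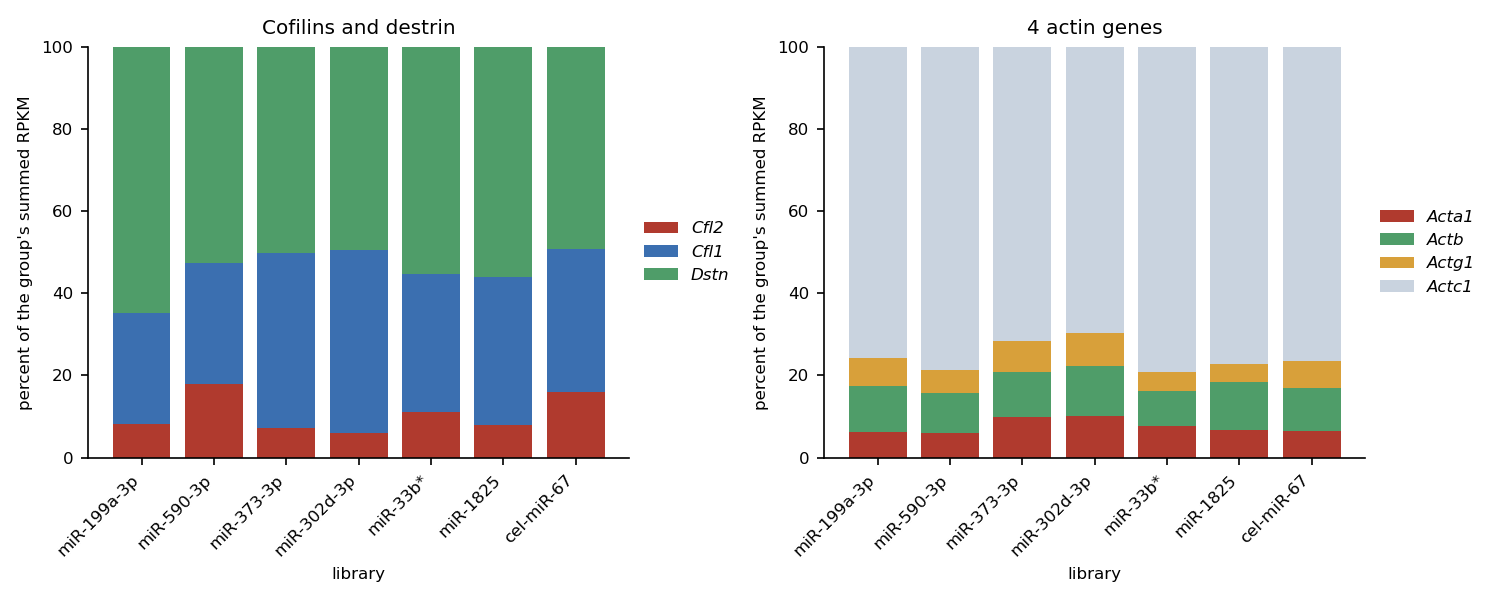
Stacked bars of the percent of summed RPKM held by Cfl2, Cfl1 and Dstn (left) and by Acta1, Actb, Actg1 and Actc1 (right) in the 6 miRNA libraries and, last, in the cel-miR-67 library, 1 library per bar. Cfl2 holds 5.89% after miR-302d-3p against 16.0% with cel-miR-67, and Actc1 holds 69.6% to 79.2% of the actin sum in the miRNA libraries.

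The levels of cardiomyocyte markers are given beside these values. The summed level of the 11 markers was 14589 RPKM after miR-302d-3p, where Cfl2 was lowest, against 14592 RPKM with cel-miR-67. It was 11906 RPKM after miR-590-3p, where Cfl2 was highest. The lowest sum was 10743 RPKM after miR-199a-3p, where Cfl2 was at 0.478 of the control. It was 12640 RPKM after miR-1825, where Cfl2 was at 0.512. The sum was 14175 RPKM after miR-373-3p and 14044 RPKM after miR-33b*. The sum follows Myl2, which alone gave 7354 RPKM of it after miR-302d-3p, and single markers differed. Of the 66 changes of the list, 15 were at least 1.5-fold lower (22.7%) and 1 was higher, against 5.79% and 5.09% of all pairs of gene and miRNA. Ryr2, the calcium release channel, was at -0.97 after miR-302d-3p and -1.07 after miR-373-3p, and Tnni3, cardiac troponin I, at -1.34 after miR-1825 and 0.42 after miR-302d-3p (genes named after their values were seen). The medians of the markers' log2 changes were -0.43 with miR-590-3p, -0.38 with miR-199a-3p, -0.31 with miR-1825, -0.15 with miR-373-3p, -0.047 with miR-302d-3p and -0.046 with miR-33b*. The part of these markers' changes in the Cfl2 values was not tested.

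Of the partners of cofilin, Cap2 was the one that stood out. It stood at 89.2 RPKM after miR-199a-3p, 82.9 RPKM after miR-590-3p, 69.6 RPKM after miR-373-3p, 76.9 RPKM after miR-302d-3p, 76.5 RPKM after miR-33b* and 89.4 RPKM after miR-1825, against 55.6 RPKM with cel-miR-67. Every miRNA library was higher than the control, and the lowest of them exceeded it by 1.25-fold (counting interval 1.20 to 1.31). The log2 changes were 0.67 with both miR-1825 and miR-199a-3p, which passed the limit, and 0.57 with miR-590-3p, 0.46 with miR-302d-3p, 0.45 with miR-33b* and 0.32 with miR-373-3p, which did not. The value after miR-302d-3p passed it too with total read scaling, at 0.71. Among all genes 13.9% were above 0 in all 6 comparisons, and 7.57% were past the limit upward in at least 2.

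Profilin (Pfn1) was also higher than the control in all 6 libraries, at 228 to 259 RPKM against 208 RPKM with cel-miR-67, with log2 changes of 0.13 to 0.32, and like Cap2 it stayed above under the other scalings. Its 6 changes spanned 0.18 log2 units, and 97.0% of all genes had a wider span. Wdr1 ranged from 118 RPKM after miR-33b* to 156 RPKM after miR-199a-3p, against 135 RPKM with cel-miR-67. Its log2 changes were 0.21 with miR-199a-3p, 0.12 with miR-302d-3p, 0.051 with miR-373-3p, 0.025 with miR-590-3p, -0.17 with miR-1825 and -0.19 with miR-33b*. Cfl2 and its cofactor Wdr1 were thus apart by 1.52 log2 units after miR-302d-3p (difference -1.52), and by 0.32 after miR-590-3p in the other direction. With Cap2 the difference was -1.86 after miR-302d-3p and -0.22 after miR-590-3p.

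The actin genes differed less than Cfl2. Cardiac alpha-actin, Actc1, was the most abundant of the 10 genes in every library. It stood at 5921 RPKM after miR-199a-3p, 6680 RPKM after miR-590-3p, 5689 RPKM after miR-373-3p, 5584 RPKM after miR-302d-3p, 6808 RPKM after miR-33b* and 7059 RPKM after miR-1825, against 7073 RPKM with cel-miR-67. The log2 changes were -0.34 with miR-302d-3p, -0.31 with miR-373-3p, -0.26 with miR-199a-3p, -0.082 with miR-590-3p, -0.055 with miR-33b* and -0.0028 with miR-1825. With total read scaling 3 of them turned positive, to 0.13 for miR-1825, 0.10 for miR-199a-3p and 0.065 for miR-33b*, so a common direction cannot be given.

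Skeletal alpha-actin, Acta1, which the newborn heart expresses beside Actc1, split the libraries. It stood at 487 RPKM after miR-199a-3p, 511 RPKM after miR-590-3p, 782 RPKM after miR-373-3p, 816 RPKM after miR-302d-3p, 663 RPKM after miR-33b* and 613 RPKM after miR-1825, against 587 RPKM with cel-miR-67. The pair of miRNAs that share a seed gave the highest levels, at 1.39-fold after miR-302d-3p (counting interval 1.37 to 1.42) and 1.33-fold after miR-373-3p (1.31 to 1.36), short of the limit of 1.5-fold. With total read scaling both were past it, at 0.73 after miR-302d-3p and 0.61 after miR-373-3p. The change of -0.27 after miR-199a-3p turned to 0.089 with total read scaling.

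The share of Acta1 in the sum of both sarcomeric actins does not depend on scaling. It was 7.60% with miR-199a-3p, 7.11% with miR-590-3p, 12.1% with miR-373-3p, 12.8% with miR-302d-3p, 8.88% with miR-33b* and 8.0% with miR-1825, against 7.66% with cel-miR-67. The shares of that pair thus stood apart from the other 5 libraries.

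The cytoplasmic actins parted after miR-1825. Actb stood at 877 RPKM after miR-199a-3p, 817 RPKM after miR-590-3p, 874 RPKM after miR-373-3p, 969 RPKM after miR-302d-3p, 730 RPKM after miR-33b* and 1064 RPKM after miR-1825, against 976 RPKM with cel-miR-67. Actg1 stood at 535, 472, 605, 658, 396 and 391 RPKM after the same miRNAs in that order, against 608 RPKM with cel-miR-67. After miR-33b* both were at their lower end. After miR-1825 Actb was at its highest and Actg1 at its lowest.

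The Actg1 changes of -0.62 after miR-33b* (ratio 0.652, counting interval 0.635 to 0.668) and -0.63 after miR-1825 (ratio 0.644, 0.628 to 0.659) passed the limit, as 8.82% of all genes did downward in at least 2 comparisons. With total read scaling both were -0.50 and no longer past it. The largest Actb change was -0.42, after miR-33b*. Both genes after miR-199a-3p and after miR-373-3p, and Actb after miR-302d-3p too, were below 0 as deposited and above 0 with total read scaling. The ratio of Actb to Actg1 RPKM, which scaling leaves alone, was 1.64 with miR-199a-3p, 1.73 with miR-590-3p, 1.44 with miR-373-3p, 1.47 with miR-302d-3p, 1.84 with miR-33b* and 2.72 with miR-1825, against 1.61 with cel-miR-67.

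Actb and Actg1 together made up 18.1% of the RPKM of the 4 actin genes with miR-199a-3p, 15.2% with miR-590-3p, 18.6% with miR-373-3p, 20.3% with miR-302d-3p, 13.1% with miR-33b* and 15.9% with miR-1825, against 17.1% with cel-miR-67. Fibroblasts and smooth muscle cells also express these 2 genes. Beside the low share after miR-33b*, the summed fibroblast markers were at 581 RPKM against 852 RPKM with cel-miR-67, and beside that after miR-302d-3p, the highest, at 613 RPKM. The summed smooth muscle markers were at 987 RPKM after miR-33b* and 776 RPKM after miR-302d-3p, against 768 RPKM with cel-miR-67. The part of either cell type in the shares was not tested. Summed actin RPKM was 7.70 to 9.18 times the summed RPKM of the cofilin family in the miRNA libraries, against 9.57 times with cel-miR-67. The actin genes are close copies of each other, and Actb, Actg1, Cfl1 and Pfn1 have processed pseudogenes, so their values are uncertain where the authors' counting could split or drop shared reads. How such reads were counted is not given in the sources used here.

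**Figure D5:**
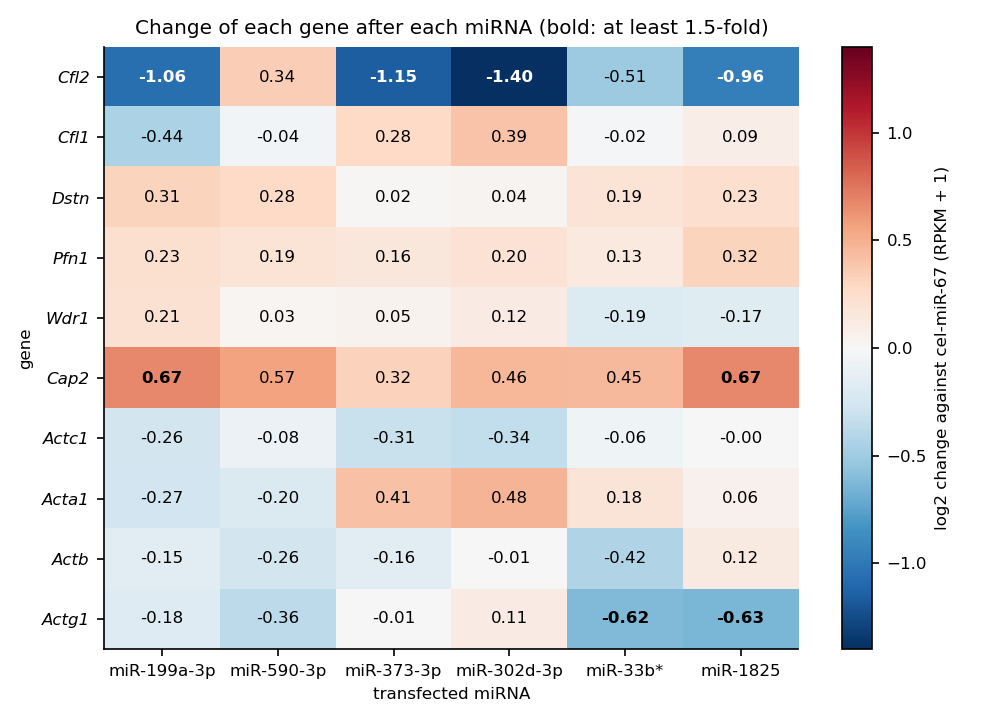
Heat map of log2((RPKM + 1)/(cel-miR-67 RPKM + 1)) for the 10 genes (rows) after the 6 miRNAs (columns), blue below 0 and red above 0, with the value in each cell and bold type at 1.5-fold or more. Bold values stand in the rows of Cfl2 (4 lower), Actg1 (2 lower) and Cap2 (2 higher).

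Counted per miRNA, 1 of the 10 genes was at least 1.5-fold lower and 1 higher after miR-199a-3p, where 5.55% of all genes were lower and 4.81% higher. After miR-590-3p there was none in either direction, against 3.49% and 4.70% of all genes. After miR-373-3p 1 was lower and 0 higher, against 6.56% and 4.83%. After miR-302d-3p 1 was lower and 0 higher, against 7.32% and 5.11%. After miR-33b* 1 was lower and 0 higher, against 5.52% and 5.17%. After miR-1825 2 were lower and 1 higher, against 6.33% and 5.94%.

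In all, 6 of the 60 changes were past the limit downward and 2 upward, beside the 5.79% and 5.09% of all pairs given above. Cfl2 gave 4 of the 6. With total read scaling 4 were past it downward and 7 upward, with 252 to 541 genes downward and 589 to 1960 upward per miRNA. The median over the 10 genes lay between -0.17 after miR-199a-3p and 0.12 after miR-302d-3p, and that of all genes between -0.0034 and 0.015.

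In level, Actc1 (5584 to 7073 RPKM over the 7 libraries) stood far above Actb (730 to 1064 RPKM), whose range overlapped that of Acta1. Acta1 (487 to 816 RPKM), Dstn (476 to 590 RPKM) and Actg1 (391 to 658 RPKM) overlapped and changed places between libraries. Cfl1 (247 to 441 RPKM) stood sixth and Pfn1 (208 to 259 RPKM) seventh in every library, although their ranges overlapped. Wdr1 (118 to 156 RPKM), Cfl2 and Cap2 (55.6 to 89.4 RPKM) came last. Cfl2 stood above Wdr1 with cel-miR-67 and after miR-590-3p and below it in the other 5 libraries.

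The miR-302d-3p and miR-373-3p libraries, which share a seed, were also set against each other. The median size of the log2 difference over the 10 genes was 0.092, against 0.10 over all genes. The largest was that of Cfl2, -0.25, with 58.2 RPKM after miR-302d-3p against 69.2 RPKM after miR-373-3p (ratio 0.841, counting interval 0.812 to 0.872). The log2 difference had an SD of 0.22 across all genes, so Cfl2 lay just outside 1 SD.

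Many actin genes are driven by serum response factor, which binds a sequence called the CArG box. In RefSeq promoters of 250 bases before to 50 after the start (GRCr8), 9 of the 10 genes had an entry, and the box was found in 3 of them, Actc1, Acta1 and Actg1, against 1.64% of 33469 promoters. The search used the strict form of the box, which reads the same on both strands, and a match is a description of the letters. The windows below are shown because these 3 genes hold the box and stood on different sides of the control, with Acta1 at 0.48 and Actc1 at -0.34 after miR-302d-3p. The box is in capitals.
Acta1, chr19:68784195-68784344, minus strand, bases -150 to -1: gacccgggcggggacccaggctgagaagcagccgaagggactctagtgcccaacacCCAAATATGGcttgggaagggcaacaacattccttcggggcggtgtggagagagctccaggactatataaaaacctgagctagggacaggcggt
Actc1, chr3:121271808-121271947, minus strand, bases -120 to 20: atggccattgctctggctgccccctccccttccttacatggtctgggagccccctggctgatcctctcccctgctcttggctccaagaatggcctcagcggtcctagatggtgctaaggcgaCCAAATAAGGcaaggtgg
Actg1, chr10:106120952-106121101, minus strand, bases -150 to -1: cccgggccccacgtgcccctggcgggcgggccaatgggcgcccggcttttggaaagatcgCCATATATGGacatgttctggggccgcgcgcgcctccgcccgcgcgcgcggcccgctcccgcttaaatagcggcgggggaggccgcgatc
The box starts 94 bases before the start of Acta1 (position -94), at -90 in Actg1 and at 3 after the annotated start of Actc1. The promoters of Cfl2, Cfl1, Dstn, Pfn1, Wdr1 and Cap2 had no such letters in this window. Of serum response factor and its coactivators, 2 of 4 listed genes passed the filter on low values and neither was past 1.5-fold in any comparison.

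Other genes of actin turnover were taken from 8 lists, and their calls were made with the deposited scaling only. Over the 65 rows that passed the filter, 28 of 390 changes were at least 1.5-fold lower (7.18%) and 16 higher (4.10%), close to the 5.79% and 5.09% of all pairs of gene and miRNA. Their median change was -0.021, and that of all genes was 0.0026. The 8 kinases and phosphatases that act on cofilin had 0 of 48 changes lower and 3 higher. These 3 belonged to the cofilin phosphatase gene Pdxp, named after its values were seen, at 0.72 with miR-373-3p, 0.64 with miR-302d-3p and 0.60 with miR-1825. Its level was low, at 2.36 RPKM with cel-miR-67 and a mean of 3.56 RPKM, below the 5 RPKM asked of list genes named by rule. The Arp2/3 complex, which starts filament branches, and its activators had 1 of 78 changes lower and 0 higher, that of Arpc5 at -0.60 after miR-33b*, also named after its values were seen.

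The list for monomer binding and recycling had 7 of 48 changes lower and 3 higher. It is wider than genes that bind monomers. The 3 higher changes were those of Gmfb (2, named after its values were seen) and Gmfg (1). Of the 7 lower changes, Twf1 and Tmsb4x gave 1 each, both after miR-199a-3p (also named after their values were seen). Tmsb4x, the most abundant of the list, was at 361 RPKM there against 753 RPKM with cel-miR-67, a log2 change of -1.06. Twinfilin 2 (Twf2), which caps filament ends and binds monomers, was past the limit downward after 5 miRNAs. It stood at 11.5 RPKM after miR-199a-3p, 14.5 RPKM after miR-590-3p, 12.3 RPKM after miR-373-3p, 13.4 RPKM after miR-302d-3p, 12.8 RPKM after miR-33b* and 9.60 RPKM after miR-1825, against 21.0 RPKM with cel-miR-67. All 6 libraries were thus below the control, with log2 changes of -1.05 to -0.50. Of all genes, 2.26% were past the limit downward in at least 4 of the 6 comparisons. Whether the Twf2 calls hold with total read scaling is not given here. Gmfg ranged from 3.55 RPKM after miR-1825 to 7.11 RPKM after miR-199a-3p, against 4.36 RPKM with cel-miR-67.

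Capping and severing genes had 9 of 84 changes lower and 6 higher. Gelsolin (Gsn), which severs filaments in a calcium-dependent way, was higher after all 6 miRNAs, at 26.3 to 60.7 RPKM against 24.6 RPKM with cel-miR-67, and past the limit after 3. Coro6, a member of the coronin family, stood at 9.61 RPKM after miR-199a-3p, 11.7 RPKM after miR-590-3p, 6.05 RPKM after miR-373-3p, 6.34 RPKM after miR-302d-3p, 6.68 RPKM after miR-33b* and 8.80 RPKM after miR-1825, against 12.9 RPKM with cel-miR-67. It was past the limit downward in 3 of these.

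Formins, which lengthen filaments, had 3 of 54 changes lower and 3 higher, and the 3 higher ones were those of Diaph3 at 0.98 after miR-1825, 0.91 after miR-199a-3p and 0.70 after miR-590-3p. Of the 2 smooth muscle actin genes, Actg2 stood at 34.3 RPKM after miR-199a-3p, 22.2 RPKM after miR-590-3p, 19.3 RPKM after miR-373-3p, 19.1 RPKM after miR-302d-3p, 14.6 RPKM after miR-33b* and 17.7 RPKM after miR-1825, against 34.8 RPKM with cel-miR-67. It was thus past the limit downward, as deposited, after all but miR-199a-3p. Acta2 had 1 change past the limit, 0.79 after miR-199a-3p. Beside these, the medians of 8 smooth muscle markers, which include Acta2, lay between -0.39 after miR-302d-3p and 0.27 after miR-199a-3p, and their part in the values was not tested.

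The 6 protein-coding genes whose changes lay closest to those of Cfl2 were Tgfb2, Col5a3, Mt-nd6, Yipf7, Mafk and Slc12a7, out of 7426 with a mean of at least 5 RPKM. The measure was the root-mean-square difference over the 6 log2 changes, which was 0.28 for Tgfb2 and 0.35 to 0.40 for the other 5. All 6 of these genes were below 0 after miR-590-3p (-0.29 to -0.12), where Cfl2 was at 0.34.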

How the data were processed

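Ventricular cardiomyocytes of newborn rats were profiled by mRNA sequencing in 7 libraries, 1 per transfected miRNA, grouped by the treatment named in the labels. The authors deposited RPKM values and, for each miRNA, the ratio of its RPKM to that of cel-miR-67. Per the submitters' processing notes, which give neither role nor order, the build named was Rnor_6.0 and the tools named were edgeR and STAR 2.7. Counter, annotation, strand setting and filters are all not given in the sources used here. All 7 single-library files equalled the series table, and 100292 deposited ratios matched the RPKM quotients to a relative 1e-06; they were not used further.

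Reads were worked out from the RPKM, since for all 17141 genes a length and a set of library sizes exist at which every value is a whole number (within 0.002 reads, or 0.05 for genes with many reads). Library sizes were 22446204 to 34708142, and the reads in the listed genes 22616067 to 31963293, of which 27.7% to 41.4% were mitochondrial. They gave exact (Clopper-Pearson) 95% intervals of ratios. For a difference between 2 genes the interval widths were added in quadrature, around the difference of the plain RPKM ratios on the log2 scale. The method was tested on simulated data.

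A change is the log2 ratio to cel-miR-67 after 1 was added to each RPKM, a scale that understates low genes, over 12330 genes averaging at least 1 RPKM. Past the limit means at least 1.5-fold. No p-value was computed. Alternatives were other pseudocounts, scalings, filters, a limit of 2-fold and another reference. Scaling to total listed reads put the median of all genes at 0.011 (miR-590-3p) to 0.30 (miR-199a-3p).

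The members, gene lists and rules were chosen with earlier results of these data known. Named beside the members were list genes averaging at least 5 RPKM that passed the limit one way in at least 4 comparisons, the 3 with the highest and the 3 with the lowest mean change, and the 6 genes closest to Cfl2. Genes were matched by symbol or older symbol. Of the 8 pathway lists, 1 is counted in the totals and not reported here by itself. Python 3.11.15, numpy 2.4.6, scipy 1.17.1, pandas 2.3.3 and matplotlib 3.10.9 were used. Sequences come from RefSeq tables of the assembly GRCr8, which is not the build of the files.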

Additional observations from a re-analysis of the deposited data

How the results depend on the processing

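With median-of-ratios scaling or a pseudocount of 0.1 the Cfl2 changes, its differences from Cfl1 and Dstn and the counts of the 10 genes past the limit kept their direction and their side of the limit. With a pseudocount of 5 this held too, with 1 exception. The difference of Cfl2 from Cfl1 after miR-199a-3p was -0.615 as reported and -0.583 there, just short of the limit of 0.585. The values after miR-302d-3p were -1.34 for Cfl2, -1.73 against Cfl1 and -1.38 against Dstn.

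Scaled to total listed reads, Cfl2 was at -1.15 with miR-302d-3p, -0.96 with miR-373-3p, -0.83 with miR-1825, -0.70 with miR-199a-3p and -0.39 with miR-33b*, and 7 changes of the 10 genes were past the limit upward. This scaling put the median of all genes at 0.23, 0.17, 0.11, 0.30 and 0.095 in these libraries, in that order, and 10 of the 60 changes took the other sign.

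With the other 5 miRNA libraries' mean as the reference, in place of cel-miR-67, Cfl2 was at -0.32 with miR-199a-3p, 1.36 with miR-590-3p, -0.44 with miR-373-3p, -0.73 with miR-302d-3p, 0.34 with miR-33b* and -0.20 with miR-1825. Its difference from Cfl1 was 0.26, 1.46, -0.72, -1.15, 0.41 and -0.26 in that order, and from Dstn -0.48, 1.23, -0.24, -0.57, 0.32 and -0.26. By construction this reference ranks the miRNA libraries among themselves and includes the high miR-590-3p library for the other 5. Of the 10 genes' changes 1 was then past the limit downward and 1 upward, both of Cfl2. Of the calls made against cel-miR-67, 7 were lost, and 17 of the 60 changes took the other sign. Cap2 was at 0.18 after both miR-199a-3p and miR-1825, and Actg1 at -0.40 after miR-33b* and -0.42 after miR-1825. Against cel-miR-67 with a limit of 2-fold, 3 of the 60 changes were past it downward, all of Cfl2, and 0 upward. Over all pairs of gene and miRNA, 1.52% were past 2-fold downward and 1.39% upward.

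All-gene counts per miRNA and direction, 430 to 902 as reported, were 94 to 260 with a 2-fold limit, 219 to 534 with a mean of at least 5 RPKM, 124 to 402 with a pseudocount of 5, 684 to 1266 with 0.1, 252 to 1960 with total read scaling and 204 to 545 with the other reference. Reads in place of RPKM, which do not correct for length, moved the 3 shares, with Cfl2 at 11.5% to 30.1% of the reads of its family in the miRNA libraries and 27.9% with cel-miR-67. No paired analysis was possible because each miRNA has 1 library. Counting error is small at this depth, so the lack of replicate cultures limits these values.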
